A study of Mus musculus with 10 samples.

Results

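The genes described here are 10 transcription factors known from the hair follicle: Sox9, Nfatc1, Lhx2, Tbx1, Tcf7l1, Tcf7l2, Foxc1, Runx1, Barx2 and Gata6. They were taken by name, with earlier results of these data known, and each matched 1 of the 49671 gene rows of the deposited table. In SmoM2-expressing epidermal cells of the mouse, 5 of them (Nfatc1, Barx2, Tbx1, Runx1 and Sox9) were higher when SmoM2 was induced through Krt14-CREER than through Inv-CREER, and were lower in Krt14-CREER cells with Survivin loss of function. Over all genes tested, 8.18% were higher between the drivers and 11.4% lower with Survivin loss. Runx1 lost its call between the drivers when any single library of the 2 groups compared was left out. In Inv-CREER cells with Survivin gain of function all 5 were below their level in Krt14-CREER cells at 8 weeks. Of all genes tested, 12.5% were lower in that comparison, which shares its Krt14-CREER libraries with the comparison of the drivers. Lhx2 had its highest level in the Inv-CREER cells without Survivin gain of function, but its difference from Krt14-CREER cells at 8 weeks was not called.

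The hair follicle keeps its stem cells in a region called the bulge and in the hair germ below it, and a set of transcription factors holds these cells in a follicular rather than an epidermal state. Sox9 specifies bulge and outer root sheath cells. Lhx2 is needed for their maintenance, Tbx1 for their self-renewal, and Nfatc1 and Foxc1 hold them quiescent. Tcf7l1 and Tcf7l2 are DNA-binding partners of beta-catenin in the Wnt pathway, Runx1 promotes the activation of the stem cells, Barx2 is a homeodomain factor of follicle remodelling, and Gata6 marks the upper follicle and the sebaceous duct. Basal cell carcinoma is a skin tumour driven by Hedgehog signalling, in which follicular programmes are known to be switched on.

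Cells expressing SmoM2-YFP, an always-active form of the Hedgehog transducer Smoothened joined to a yellow fluorescent protein, were isolated by flow sorting from skin epidermis and profiled by bulk sequencing of polyA RNA. The stated purpose was to examine what Survivin, encoded by Birc5, does in the formation of basal cell carcinoma. Each of the 5 groups held 2 libraries, and since no label states that these are different mice, p-values measure the spread between libraries only. The groups were Inv-CREER/Rosa-SmoM2/Krt14rtTA/Survivin-GOF at 8 weeks (Inv GOF), Krt14-CREER/Rosa-SmoM2 at 8 weeks, Inv-CREER/Rosa-SmoM2 at 8 weeks (Inv controls), Krt14-CREER/Rosa-SmoM2/Survivin LOF at 6 weeks (Krt14 LOF) and Krt14-CREER/Rosa-SmoM2 at 6 weeks. All carry SmoM2, so no normal epidermis is among them. Weeks are followed by TAM in the titles, taken to mean tamoxifen, the drug that switches CREER on, and no age is given. The Krt14 promoter is active in basal keratinocytes and the involucrin promoter in differentiating ones. Krt14rtTA is named only for Inv GOF, so its effect and that of Survivin cannot be told apart, and the sample descriptions name both Inv control libraries as pools.

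The reads behind each library, worked out from the steps between its values, numbered between 7693167 and 8870758. Values are in normalized counts, on a scale where each library sums to about the same total (between 20011195 and 20014054). Birc5 was at 7277 and 16384 in Inv GOF, at 1005 and 926 in Krt14 at 8 weeks, at 237 and 265 in Inv controls, at 382 and 429 in Krt14 LOF and at 961 and 1103 in Krt14 at 6 weeks. Birc5 thus followed the labels, with the 2 Inv GOF libraries apart from each other. The basal keratins Krt14 (47388 to 84983) and Krt5 (61520 to 149229) were high in all 10 libraries, as the labelled epithelial cell type requires. Xist, the X-inactivation transcript of female cells, was at 7589 and 56185 in Inv GOF and at 30024 and 59594 in Krt14 LOF, against 51 to 194 in the other 6 libraries. The Y-linked gene Ddx3y was at 956 to 3328 in all 10, so that the Krt14 LOF and Inv GOF libraries held both the female and the male transcript, while the other 6 held the male one with little Xist. Sex and Survivin genotype therefore cannot be told apart in these libraries, and a fit with Xist as a covariate is given beside the results it changed.

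Every one of the 10 factors was detected in every library. The lowest value was 43 normalized counts, for Gata6 in an Inv control, and the highest 10381, for Nfatc1 in Krt14 at 8 weeks. Detection was limited at 3 reads, worth 6.76 to 7.8 normalized counts depending on the library (counting error only). Per kilobase of annotated exon, which allows genes to be compared, Lhx2 averaged 1372.9 and Sox9 1280.6 normalized counts per kb over the 10 libraries. Nfatc1 (693.3) and Barx2 (679.6) came next, then Tbx1 (345.5), Runx1 (340.1) and Tcf7l2 (240.0 normalized counts per kb). The lowest levels were those of Foxc1 (155.7), Tcf7l1 (98.8) and Gata6 (17.7). The order depended on the group. Sox9 led in Krt14 at 8 weeks (mean 1787.8 per kb) and at 6 weeks (1972.4), while Lhx2 led in Inv GOF (1149.9), Inv controls (1803.8) and Krt14 LOF (1468.7 per kb).

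**Figure D1:**
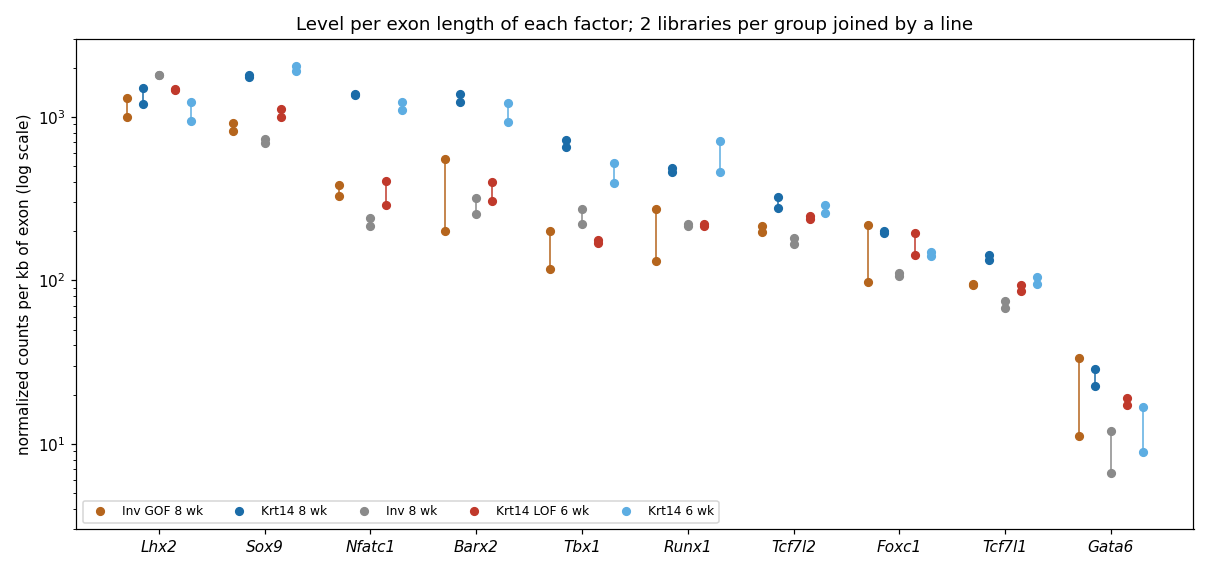
Normalized counts per kilobase of exon (log scale) for each of the 10 factors; each point is a library and the 2 libraries of a group are joined by a line. Lhx2 and Sox9 have the highest levels and Gata6 the lowest (17.7 per kb on average), and the Inv GOF lines are long for Barx2, Runx1, Foxc1 and Gata6.

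RefSeq promoter windows on build GRCm38.p6 were examined for 6 of the 10 symbols (Lhx2, Tcf7l1, Tcf7l2, Foxc1, Tbx1 and Runx1). Windows of the remaining factors were not examined, so nothing is said here about their promoters. Shown here are the 250 bases before a start site, 5′ to 3′ on the strand of the gene. They are given for Runx1 and Tbx1, both highest in the Krt14 groups with intact Survivin, and for Lhx2, which was not. Tcf7l2 is given because its window held the most matches. None of these windows overlaps an annotated exon. Capitals mark matches, on either strand, to the cores searched for factors of these families: CTTTGA for TCF/LEF, TGTGGT for RUNX, TGGAAA for NFAT, AGATAA for the GATA family, TGTTTA for forkhead, TAATTA for homeodomain and ACAATG for SOX factors, and to GACCACCCA, the GLI site of the Hedgehog pathway. None of the matches overlaps another.
Runx1, chr16:92697330-92697579, minus strand: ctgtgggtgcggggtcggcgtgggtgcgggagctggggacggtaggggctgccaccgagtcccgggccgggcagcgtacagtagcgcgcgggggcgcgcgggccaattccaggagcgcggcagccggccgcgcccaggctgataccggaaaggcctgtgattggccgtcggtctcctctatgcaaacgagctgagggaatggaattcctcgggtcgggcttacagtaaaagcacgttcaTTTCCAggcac
Tbx1, chr16:18590672-18590921, minus strand: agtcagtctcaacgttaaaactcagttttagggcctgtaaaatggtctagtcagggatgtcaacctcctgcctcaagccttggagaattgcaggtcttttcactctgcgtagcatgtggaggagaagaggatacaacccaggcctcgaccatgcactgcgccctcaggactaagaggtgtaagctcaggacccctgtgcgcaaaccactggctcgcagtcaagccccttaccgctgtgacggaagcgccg
Lhx2, chr2:38339031-38339280, plus strand: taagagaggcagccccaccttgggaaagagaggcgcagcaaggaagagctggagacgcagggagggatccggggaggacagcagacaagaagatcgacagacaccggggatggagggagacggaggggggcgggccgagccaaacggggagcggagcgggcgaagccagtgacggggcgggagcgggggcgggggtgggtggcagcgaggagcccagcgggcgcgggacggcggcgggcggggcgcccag
Tcf7l2, chr19:55741560-55741809, plus strand: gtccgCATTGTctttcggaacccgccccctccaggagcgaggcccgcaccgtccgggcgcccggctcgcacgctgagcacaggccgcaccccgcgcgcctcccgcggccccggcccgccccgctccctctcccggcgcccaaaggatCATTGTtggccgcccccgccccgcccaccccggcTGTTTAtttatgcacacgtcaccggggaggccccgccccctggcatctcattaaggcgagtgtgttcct

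The Runx1 window held an NFAT core, 11 to 6 bases before the start, and the Tcf7l2 window 2 SOX cores and a forkhead core. Neither the Tbx1 nor the Lhx2 window shown held any of the cores searched. Of all 32851 promoter windows of this length, 18.6% held the NFAT core, 10.7% the SOX core, 12.0% the forkhead core and 0.2% the GLI site. The remaining cores were in 13.8% (TCF/LEF), 14.0% (RUNX), 10.0% (GATA) and 4.8% (homeodomain) of windows. Such matches are a description of the letters and not of binding.

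Sox9 (GRCm38, as for all positions here, chromosome 11, 112782224 to 112787760, plus strand) was at 3398 and 3770 in Inv GOF, 7489 and 7296 in Krt14 at 8 weeks, 2872 and 3046 in Inv controls, 4626 and 4142 in Krt14 LOF and 7851 and 8461 normalized counts in Krt14 at 6 weeks. No group overlapped its neighbour in the order of means, which ran from Krt14 at 6 weeks through Krt14 at 8 weeks, Krt14 LOF and Inv GOF down to Inv controls. Replicates were close, the higher Inv GOF library being 1.11 times the lower. In bulk samples fewer cells that express a gene and less of its RNA per cell cannot be told apart.

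Nfatc1 (chromosome 18, 80606205 to 80713071, minus strand) gave 2859 and 2457 in Inv GOF, 10381 and 10121 in Krt14 at 8 weeks, and 1796 and 1601 in Inv controls. At 6 weeks it gave 3028 and 2154 in Krt14 LOF and 8190 and 9191 in Krt14. The 4 Krt14 libraries with intact Survivin thus stood at 8190 or more and the other 6 at 3028 or less. Inv GOF and Krt14 LOF overlapped. Nfatc1, the calcium-calcineurin responsive factor that slows the bulge stem cell cycle, had the widest range of the 10 by group mean, 10251 ± 184 in Krt14 at 8 weeks and 1698.5 ± 138 in Inv controls (SD, n = 2 each).

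Tbx1 (chromosome 16, 18580979 to 18590671, minus strand), a T-box factor, was at 412 and 710 in Inv GOF, 2534 and 2298 in Krt14 at 8 weeks, 965 and 773 in Inv controls, 598 and 625 in Krt14 LOF and 1388 and 1847 normalized counts in Krt14 at 6 weeks. Here Inv controls stood above Krt14 LOF without overlap, and Inv GOF overlapped Krt14 LOF. Barx2 (chromosome 9, 31846044 to 31913462, minus strand) was at 395 and 1092 in Inv GOF, 2439 and 2704 in Krt14 at 8 weeks, 628 and 502 in Inv controls, 605 and 790 in Krt14 LOF and 1830 and 2389 in Krt14 at 6 weeks. All 4 Krt14 libraries with intact Survivin lay above the other 6, as for Nfatc1, Sox9 and Tbx1, and the 3 low groups of Barx2 overlapped.

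Runx1 (chromosome 16, 92601466 to 92826149, minus strand) followed the same order of high and low groups, with a wider spread. It was at 1590 and 3302 in Inv GOF, 5530 and 5888 in Krt14 at 8 weeks, 2674 and 2575 in Inv controls, 2577 and 2643 in Krt14 LOF and 8596 and 5527 in Krt14 at 6 weeks. Its low groups could not be placed in an order, since their libraries overlapped, and neither could Krt14 at 8 and at 6 weeks.

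The 2 TCF factors had a narrower range. Tcf7l2 (chromosome 19, 55741820 to 55933654, plus strand) was at 1734 and 1901 in Inv GOF, 2448 and 2828 in Krt14 at 8 weeks, 1602 and 1466 in Inv controls, 2097 and 2178 in Krt14 LOF and 2544 and 2263 in Krt14 at 6 weeks. Tcf7l1 (chromosome 6, 72626378 to 72789254, minus strand), a repressor type of TCF, was at 373 and 370 in Inv GOF, 521 and 564 in Krt14 at 8 weeks, 292 and 267 in Inv controls, 370 and 339 in Krt14 LOF and 409 and 372 in Krt14 at 6 weeks. Inv controls were the lowest group of both and Krt14 at 8 weeks the highest. Krt14 LOF overlapped neither Krt14 at 6 weeks nor Inv controls in either gene.

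Foxc1 (chromosome 13, 31806633 to 31812476, plus strand) was at 575 and 1272 in Inv GOF, 1180 and 1133 in Krt14 at 8 weeks, 653 and 626 in Inv controls, 1133 and 832 in Krt14 LOF and 872 and 822 in Krt14 at 6 weeks. Gata6 (chromosome 18, 11052064 to 11085635, plus strand) was at 73 and 219 in Inv GOF, 186 and 148 in Krt14 at 8 weeks, 78 and 43 in Inv controls, 124 and 113 in Krt14 LOF and 58 and 109 in Krt14 at 6 weeks. In both genes the 2 Inv GOF libraries spanned most of the range of the series. Lhx2 (chromosome 2, 38339281 to 38369733, plus strand) was at 5714 and 4389 in Inv GOF, 6605 and 5284 in Krt14 at 8 weeks, 7891 and 7957 in Inv controls, 6435 and 6469 in Krt14 LOF and 5441 and 4127 in Krt14 at 6 weeks. Inv controls were the highest group of this LIM-homeodomain factor, and the next 4 groups overlapped, except that Krt14 LOF lay above both Krt14 at 6 weeks and Inv GOF.

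**Figure D2:**
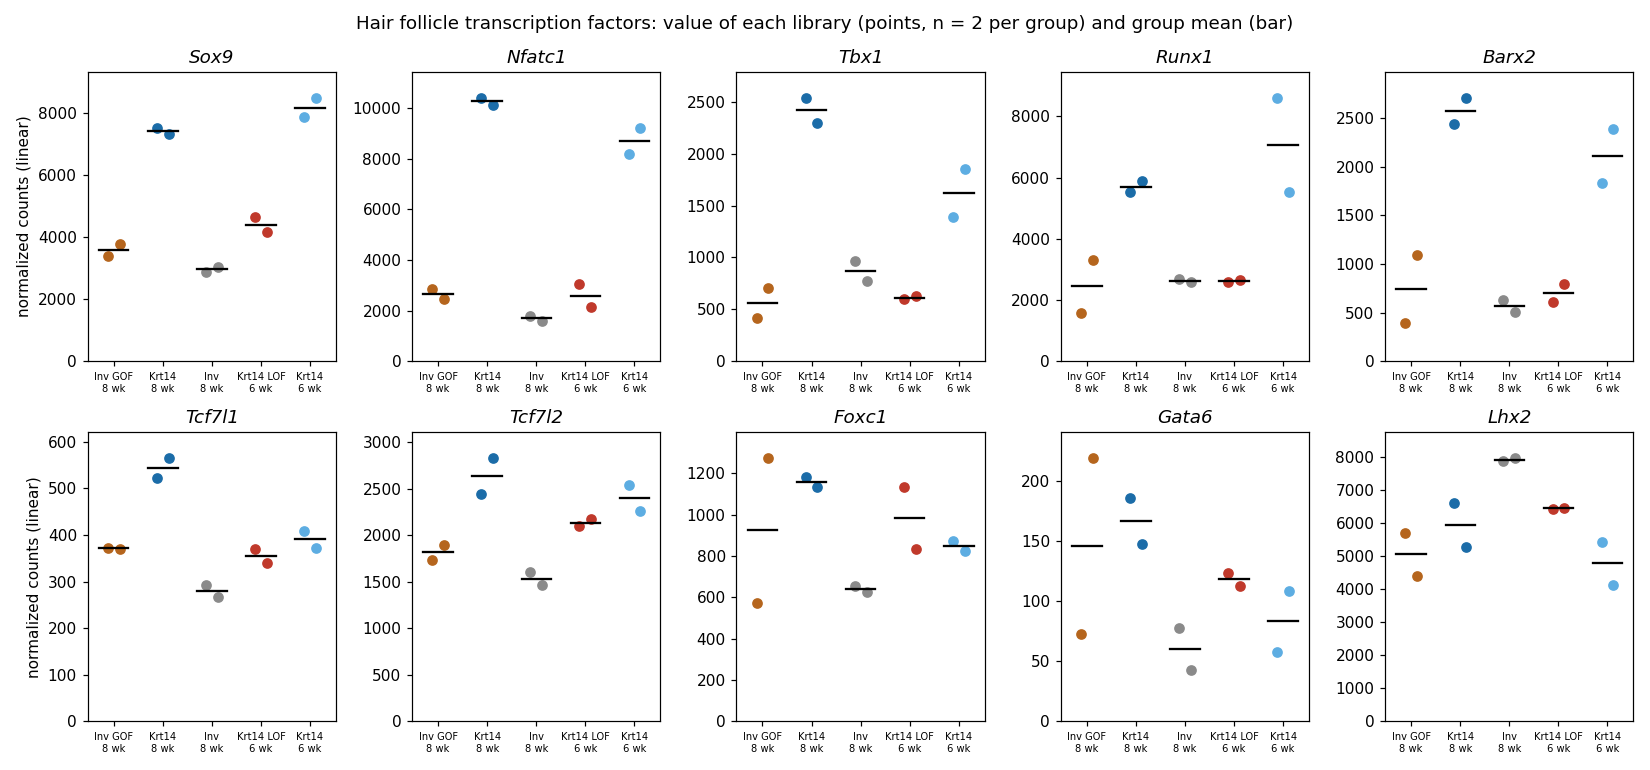
Normalized counts (linear axis from 0) of each factor; points are libraries, 2 per group, and the bar is the group mean. Sox9, Nfatc1, Tbx1, Runx1 and Barx2 are high in both Krt14 groups with intact Survivin, Lhx2 is highest in Inv controls (7891 and 7957), and the Inv GOF points are far apart for Runx1, Barx2, Foxc1 and Gata6.

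The first comparison asked what reduced Survivin does to these factors in Krt14-CREER cells at 6 weeks. Of the 10, 5 fell with Survivin LOF, 0 rose and 5 did not pass. Across all 21995 genes tested, 11.4% fell and 19.5% rose (30.9% in either direction). Among the 14325 genes with a mean of at least 50 normalized counts, as all 10 factors have, 15.3% fell and 24.4% rose (39.7% in all). The median log2 change was -0.53 over the 10 factors against 0.16 over all genes. Nfatc1 was 3.35-fold lower, at 3028 and 2154 in Krt14 LOF against 8190 and 9191 in Krt14 (log2 change -1.76, SE 0.15, adjusted p = 1.84e-05, limma with Benjamini-Hochberg adjustment over all genes tested, as for all adjusted p-values here). Barx2 was 3.02-fold lower (log2 change -1.60, SE 0.36, adjusted p = 0.00649), Runx1 2.71-fold (-1.40, SE 0.28, adjusted p = 0.00325) and Tbx1 2.65-fold (-1.39, SE 0.23, adjusted p = 0.00112). Sox9 fell less, 1.86-fold (-0.90, SE 0.10, adjusted p = 7.3e-05). In each of these 5 genes both Krt14 LOF libraries were below both Krt14 libraries, which was so, in either direction, for 9 of the 10 factors, for 66.6% of all genes and for 77.1% of those with a mean of at least 50.

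Tcf7l2 (log2 change -0.17, SE 0.11) and Tcf7l1 (-0.14, SE 0.14) did not pass with Survivin LOF, nor did Foxc1 (0.20, SE 0.28), Gata6 (0.57, SE 0.49) or Lhx2 (0.45, SE 0.16, adjusted p = 0.0516). Lhx2 lay so near the threshold that it passed as a rise in 6 of 15 alternative settings. The directions of the 5 falls held under median-of-ratios rescaling and quantile normalization, while the median of all genes moved by more than 0.1, to 0.02 and -0.01, and rises made up 49% and 50.9% of the calls, against 63.1% in the reported fit. Barx2 lost its call without replicate 1 of Krt14 LOF (adjusted p = 0.0559) and without replicate 2 of Krt14 (adjusted p = 0.0603). With the Xist level as a covariate, which is nearly the same as the Survivin genotype in these libraries, Sox9 (-0.99, adjusted p = 0.149) and Nfatc1 (-0.79, adjusted p = 0.408) lost theirs, while Runx1 (-4.34), Barx2 (-5.32) and Tbx1 (-2.99) kept theirs. That fit takes its Xist slope from differences between libraries of the same group, widest in Inv GOF (7589 and 56185). Its sizes are therefore extrapolated to the gap between groups, and it cannot separate sex from genotype.

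At 8 weeks the 2 drivers could be set against each other, without any Survivin transgene or loss. Of the 10 factors, 7 were higher in Krt14 than in Inv controls, 0 were lower and 3 did not pass. Among all genes 8.18% were higher and 11.4% lower (19.6% in either direction). At a mean of at least 50 it was 10.9% higher and 14.4% lower (25.3%). The median log2 change was 1.22 over the factors against -0.10 over all genes. Nfatc1 was 6.04-fold higher in Krt14, at 10381 and 10121 against 1796 and 1601 in Inv controls (log2 change 2.59, SE 0.15, adjusted p = 2.7e-06), and Barx2 4.55-fold higher (2.19, SE 0.36, adjusted p = 0.00164). Tbx1 (1.48, SE 0.23, adjusted p = 0.00113) and Sox9 (1.32, SE 0.10, adjusted p = 8.19e-06) followed. The rises of Runx1 (1.12, SE 0.28, adjusted p = 0.0161), Tcf7l1 (0.95, SE 0.14) and Tcf7l2 (0.78, SE 0.11) were smaller. All 10 factors had libraries that did not overlap between the 2 groups, against 63.9% of all genes and 71.4% of those with a mean of at least 50.

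Foxc1 was at 1180 and 1133 in Krt14 against 653 and 626 in Inv controls and just missed the threshold (log2 change 0.85, SE 0.28, adjusted p = 0.0577), as did Gata6 at 186 and 148 against 78 and 43 (1.5, SE 0.49, adjusted p = 0.0527). Lhx2 was the only factor of the 10 with the opposite sign, at 6605 and 5284 in Krt14 against 7891 and 7957 in Inv controls, and it did not pass (-0.42, SE 0.16, adjusted p = 0.0846). Foxc1 and Gata6 each passed in 6 of 15 alternative settings, and Lhx2 passed as lower in 3 of them. With the Xist covariate all 10 factors passed, Lhx2 as lower (-0.54, adjusted p = 0.0212). Runx1 lost its call without any single library of the 2 groups (adjusted p from 0.0779 to 0.108).

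Survivin gain of function was compared with the Inv controls at 8 weeks. Only Nfatc1 rose, at 2859 and 2457 in Inv GOF against 1796 and 1601 (1.56-fold, log2 change 0.64, SE 0.15, adjusted p = 0.0154), and only Lhx2 fell, at 5714 and 4389 against 7891 and 7957 (1.57-fold, -0.66, SE 0.16, adjusted p = 0.0171). The other 8 did not pass. That is 2 of 10 factors, against 15.3% of all genes (6.87% higher, 8.4% lower) and 21.5% of those with a mean of at least 50 (9.7% higher, 11.8% lower), a share near that background. The median log2 change was 0.26 over the factors and -0.01 over all genes. Sox9 (0.28, SE 0.10, adjusted p = 0.0781), Tcf7l1 (0.41, SE 0.14, adjusted p = 0.0788) and Tcf7l2 (0.24, SE 0.11, adjusted p = 0.172) had both Inv GOF libraries above both Inv controls, and Tbx1 both below (-0.67, SE 0.23, adjusted p = 0.0697). In all 6 of the 10 factors did not overlap between the groups, against 54.9% of all genes and 61.4% of those with a mean of at least 50.

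These Inv GOF results rested on libraries that differed. Replicate 2 over replicate 1 of Inv GOF was 3.0 for Gata6, 2.76 for Barx2, 2.21 for Foxc1, 2.08 for Runx1 and 1.72 for Tbx1, beside 2.25 for Birc5. It was 0.77 for Lhx2, 0.86 for Nfatc1, and 0.99 to 1.11 for Tcf7l1, Tcf7l2 and Sox9. The higher over the lower library had a median of 1.51 over the 10 factors in Inv GOF, against 1.22 over the 14325 genes with a mean of at least 50, and of 1.09 to 1.22 over the factors in the remaining groups. Without replicate 1 of Inv GOF, Nfatc1, Sox9, Foxc1, Barx2 and Gata6 passed as rises and Lhx2 as a fall, 6 in all. Without replicate 2 the 3 that passed were Nfatc1 as a rise and Runx1 and Tbx1 as falls. Nfatc1 and Lhx2 both lost their call without either Inv control library (adjusted p from 0.0639 to 0.138).

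The sum of the endothelial markers differed between the Inv GOF libraries, and endothelial cells are known to express Foxc1 and Nfatc1. Foxc1 was higher in replicate 2 of Inv GOF (575 and 1272), whereas Nfatc1 was lower there (2859 and 2457). The 10 markers summed to 514 in replicate 1 and 1719 in replicate 2 of Inv GOF, 415 to 435 in Krt14 at 8 weeks and 511 to 519 in Inv controls. Kdr, a receptor of endothelial growth factor, was at 41 and 294 in Inv GOF against 30 and 37 in Inv controls, and Emcn at 49 and 242 against 5 and 23. Pecam1, the marker with the highest mean, was at 188 and 338 against 162 and 183. Lower in Inv GOF were Egfl7, at 111 and 115 against 144 and 118, and Vwf, at 41 and 60 against 89 and 75. None of the 9 endothelial markers tested passed between Inv GOF and Inv controls. Against Krt14 at 8 weeks 4 of the 9 were higher in Inv GOF (Cldn5, Emcn, Kdr and Tek) and 1 was lower (Vwf), with a median log2 difference of 2.54. Their part in the values of the factors was not tested.

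Set against Krt14 cells of the same 8 weeks, Inv GOF cells had lower levels of 7 of the 10 factors, the same 7 that were higher in Krt14 than in Inv controls. These comparisons share their Krt14 libraries. None of the 10 was higher, and among all genes 12.5% were lower and 15.2% higher (27.7% in either direction). At a mean of at least 50 it was 17% lower and 19.4% higher (36.4%). The median log2 change was -0.80 over the factors and 0.09 over all genes. Tbx1 was 4.31-fold lower, at 412 and 710 in Inv GOF against 2534 and 2298 in Krt14 (log2 change -2.16, SE 0.23, adjusted p = 8.31e-05), Nfatc1 3.86-fold (-1.95, SE 0.15, adjusted p = 1.29e-05) and Barx2 3.46-fold (-1.97, SE 0.36, adjusted p = 0.00232). Runx1 was 2.33-fold lower (-1.32, SE 0.28, adjusted p = 0.00523) and Sox9 2.06-fold (-1.05, SE 0.10, adjusted p = 3.78e-05). Tcf7l1 (-0.54, SE 0.14, adjusted p = 0.0162) and Tcf7l2 (-0.54, SE 0.11, adjusted p = 0.00509) were lower by less, whereas Foxc1 (-0.43), Gata6 (-0.39) and Lhx2 (-0.24) did not pass. Libraries did not overlap for 7 of the 10 factors, 60.7% of all genes and 67.7% of those with a mean of at least 50.

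The calls against Krt14 held for Tbx1, Barx2 and Runx1 in all 15 alternative settings. Sox9 (-1.13, adjusted p = 0.13) and Nfatc1 (-1.10, adjusted p = 0.269) lost theirs with the Xist covariate only. For lost and kept calls alike, that fit cannot separate sex from genotype. Tcf7l1 lost its call without either Krt14 library at 8 weeks (adjusted p = 0.0601 and 0.112), in a fit to the 2 groups alone (adjusted p = 0.0708), at a threshold of 0.01 and with the Xist covariate (adjusted p = 0.618). Tcf7l2 lost its call without replicate 2 of Krt14 (adjusted p = 0.0627) and with the Xist covariate (adjusted p = 0.133).

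Between 8 and 6 weeks in Krt14 cells with intact Survivin, 0 of the 10 factors passed, at a background of 4.88% of all genes (4.02% higher, 0.855% lower). It was 6.1% of genes with a mean of at least 50 (4.89% higher, 1.21% lower). Libraries did not overlap for 7 of the 10 factors, 56.5% of all genes and 63% of those with a mean of at least 50. Tcf7l1 was at 521 and 564 at 8 weeks against 409 and 372 at 6 weeks (log2 change 0.47, SE 0.14, unadjusted p = 0.00711, limma, adjusted p = 0.0851). Tbx1 was at 2534 and 2298 against 1388 and 1847 (0.59, SE 0.23, unadjusted p = 0.0248, limma, adjusted p = 0.159), and no other factor had an unadjusted p under 0.05. Sox9 differed by -0.14 (SE 0.10) and Nfatc1 by 0.24 (SE 0.15). In a fit to the 4 libraries of these 2 groups alone, Foxc1, Tbx1 and Tcf7l1 passed as rises, and limma-voom on recovered reads called 0. The share of rises among the calls over all genes was 82.5%, and 53.7% after median-of-ratios rescaling, where the median of all genes was 0, against 0.14 in the reported fit.

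**Figure D3:**
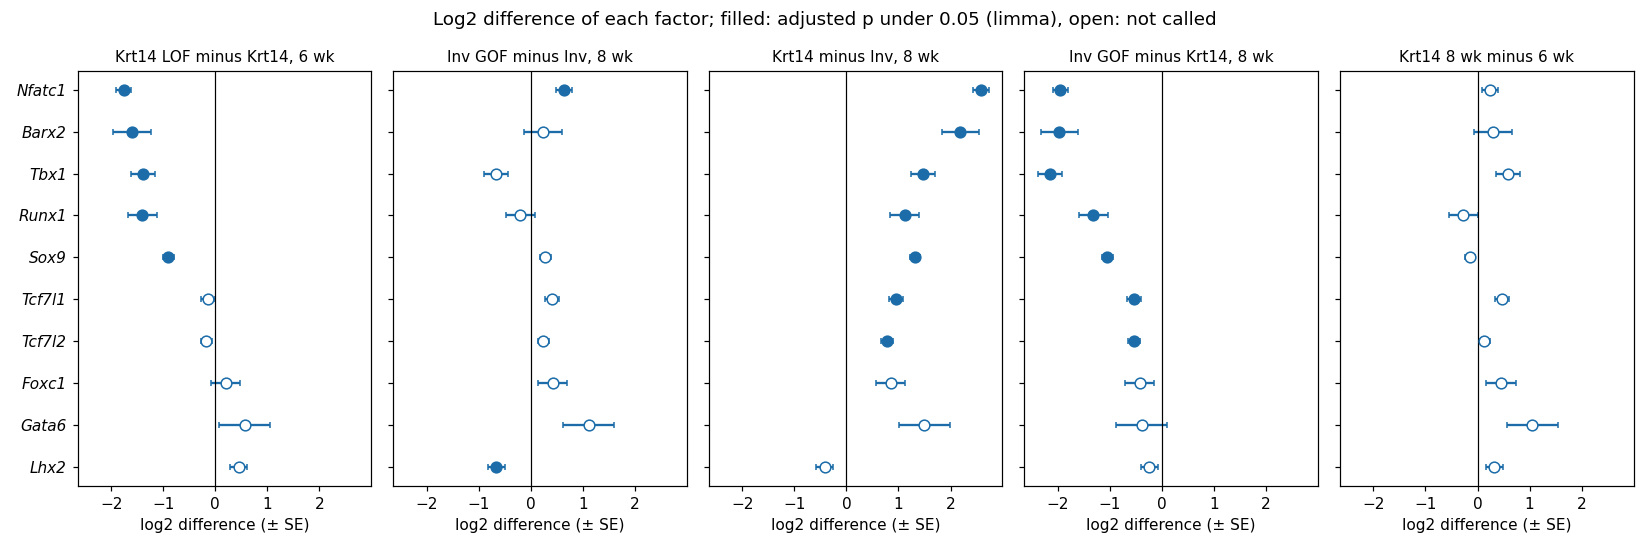
Log2 difference (± SE) of each factor in the 5 comparisons; filled points passed an adjusted p of 0.05 (limma), open points did not. The 5 upper factors lie left of 0 with Survivin LOF (-1.76 to -0.90) and right of 0 for Krt14 against Inv controls (1.12 to 2.59), and Lhx2 is the factor of the 10 that lies left of 0 in that comparison.

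Krt14 LOF and Inv controls, both low in the 5 factors, differ in driver and in weeks, so their values are given side by side only. Sox9 was at 4626 and 4142 in Krt14 LOF, beside 2872 and 3046 in Inv controls, and Nfatc1 at 3028 and 2154, beside 1796 and 1601. Runx1 was at 2577 and 2643 in Krt14 LOF, beside 2674 and 2575 in Inv controls. Tbx1 was at 598 and 625, beside 965 and 773.

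Other transcription factors of the follicle did not share one direction. Over all genes tested, calls in either direction made up 30.9% (Survivin LOF), 19.6% (Krt14 against Inv controls) and 15.3% (Survivin GOF). They made up 27.7% for Inv GOF against Krt14 and 4.88% at 8 against 6 weeks. Counts in this and the next lists are to be read beside these shares. Genes named from this and the next lists are the called ones with the largest change among those with a mean of at least 50 normalized counts in the libraries compared, so that a gene of lower level can have changed more. Of a list of 26, with Survivin LOF 12 rose and 5 fell (median log2 change 0.59), among them Foxe1, a forkhead factor of the follicle, at 23 and 10 in Krt14 LOF against 703 and 372 in Krt14 (-4.98, SE 0.39), Msx2 at 712 and 702 against 263 and 132 (1.92, SE 0.33) and Foxi3 at 1604 and 1126 against 495 and 336 (1.72, SE 0.51). Between Krt14 and Inv controls 6 were higher and 7 lower (median -0.30). Named by this rule were Prdm1, the repressor Blimp1, at 1023 and 1219 in Krt14 against 137 and 156 in Inv controls (2.92, SE 0.33), Egr2 (2.87, SE 0.32) and Foxe1 at 924 and 753 against 139 and 116 (2.71, SE 0.39). With Survivin GOF 3 rose and 4 fell (median -0.18). Foxi3 was at 801 and 175 in Inv GOF against 1657 and 1416 in Inv controls (-2.03, SE 0.51), Foxq1 at 542 and 546 against 228 and 190 (1.38, SE 0.17) and Cux1 at 22350 and 10092 against 33794 and 34278 (-1.18, SE 0.32). Against Krt14, Inv GOF had 6 higher and 4 lower (median -0.05), Foxe1 (-2.90), Prdm1 (-2.63) and Egr2 (-2.07) being lower. At 8 against 6 weeks 5 were higher and 0 lower (median 0.26), with Dlx3 (1.39), Lef1 (1.16) and Foxq1 (1.02) among them.

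Factors of the epidermis itself were mostly lower with Survivin LOF. Of 20, 12 fell and 1 rose (median log2 change -0.64), Grhl3, a regulator of the skin barrier, being at 95 and 88 in Krt14 LOF against 519 and 721 in Krt14 (-2.73, SE 0.45), Ehf at 325 and 465 against 2000 and 1695 (-2.24, SE 0.18) and Cebpb at 588 and 571 against 2186 and 2074 (-1.88, SE 0.23). Between Krt14 and Inv controls 10 were higher and 1 lower (median 0.45), among them Grhl3 (1.93, SE 0.45), Klf4 (1.42, SE 0.14) and Ovol1 (1.36, SE 0.20). With Survivin GOF 3 rose and 3 fell (median -0.07). There Klf4 was at 5516 and 6638 in Inv GOF against 2401 and 2247 in Inv controls (1.38, SE 0.14), Klf5 differed by 1.28 and Bnc1 by -0.77. Against Krt14, 1 was higher and 9 lower in Inv GOF (median -0.34), among them Grhl3 (-2.45), Cebpb (-1.44) and Ehf (-1.41). At 8 against 6 weeks the median of this list was -0.25.

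Relatives and cofactors of the 10 were a list of 30, of which 25 could be tested. Lhx9, Barx1, Sox8, Tbx15 and Tbx18 were at or under the floor in all 10 libraries. With Survivin LOF 6 rose and 5 fell (median log2 change -0.02), and the 3 largest with a mean of at least 50 were all falls: Nfatc4 at 35 and 32 in Krt14 LOF against 122 and 132 in Krt14 (-1.89, SE 0.33), Runx2 at 70 and 86 against 268 and 217 (-1.62, SE 0.29) and Tbx3 at 226 and 185 against 509 and 538 (-1.35, SE 0.17). Some relatives of Nfatc1 and Runx1 were also higher in Krt14 than in Inv controls, Nfatc4 at 183 and 194 against 37 and 21 (2.71, SE 0.33), Runx3 at 109 and 82 against 30 and 12 (2.25, SE 0.48) and Runx2 at 236 and 301 against 62 and 73 (1.97, SE 0.29). Nfatc2 passed as well, whereas Nfat5 and Nfatc3, with Nfatc3 at 4167 and 4063 against 4474 and 4489, did not. There 7 were higher and 3 lower in all (median 0.08).

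With Survivin GOF 3 of these relatives and cofactors rose and 1 fell (median 0.38). That is 4 of the 25 tested, a share near the 15.3% of all genes. Nfatc2 was at 109 and 164 in Inv GOF against 57 and 55 in Inv controls (1.24, SE 0.33), the LIM cofactor Ldb1 at 5911 and 8832 against 4824 and 4704 (0.60, SE 0.16), and Ctnnb1, which encodes beta-catenin, at 22915 and 17338 against 26254 and 27028 (-0.42, SE 0.12). Against Krt14, 7 were higher and 6 lower in Inv GOF (median 0.19), with Nfatc4 (-2.24), the corepressor gene Tle2 (-1.88) and Tbx2 (1.82) among them. At 8 against 6 weeks 3 were higher and 1 lower (median 0.22), among them Runx3 (2.01), Lef1 (1.16) and the TCF family member Tcf7 (-0.82).

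**Figure D4:**
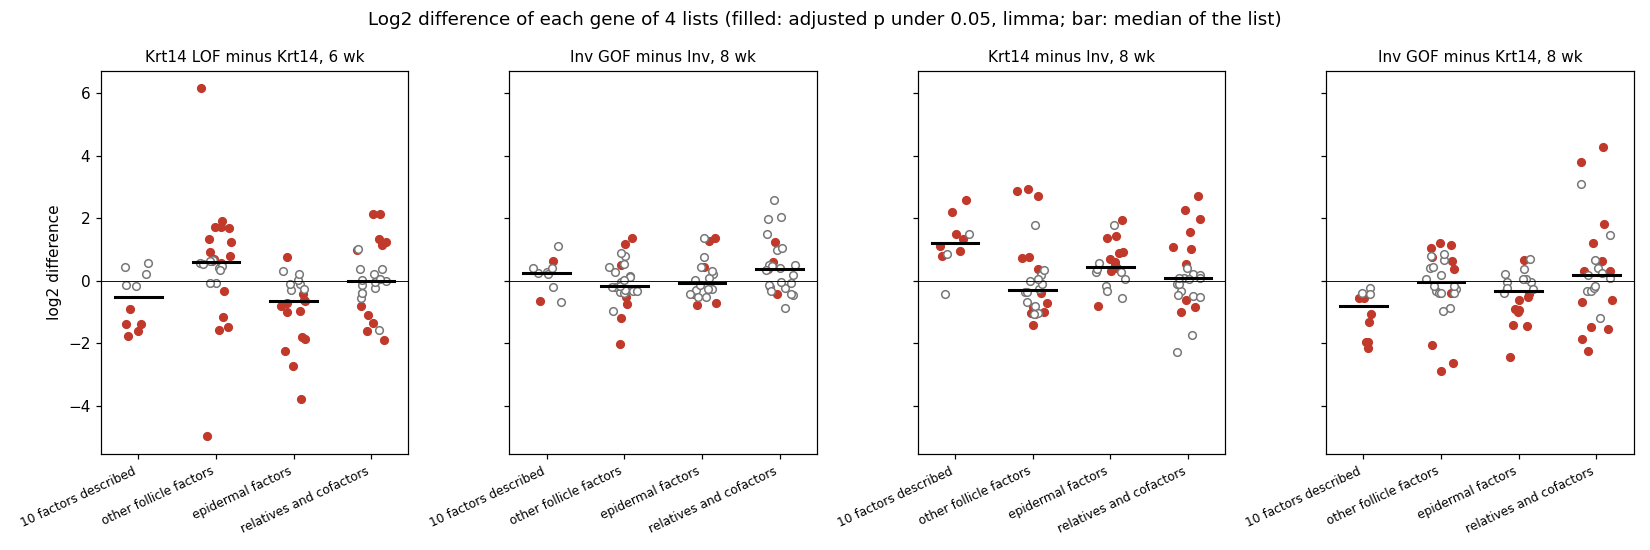
Log2 difference of each gene in 4 lists for 4 comparisons; filled points passed an adjusted p of 0.05 (limma), open points did not, and the bar is the median. For Krt14 against Inv controls the median of the 10 factors is 1.22. It is -0.30 for the other follicle factors, 0.45 for the epidermal factors and 0.08 for the relatives and cofactors.

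Markers of follicle compartments gave a mixed picture. Of 15, 14 could be tested, and with Survivin LOF 4 rose and 5 fell, between Krt14 and Inv controls 9 were higher and 1 lower, with Survivin GOF 5 rose and 2 fell, against Krt14 1 was higher and 9 lower in Inv GOF, and at 8 against 6 weeks 2 were higher. The bulge surface marker Cd34 was at 0 to 52 normalized counts over the 10 libraries and at or under the floor in several, whereas Krt15 was at 6068 to 11201 and Lgr5 at 1734 to 5292. Sebaceous markers set the Inv controls apart, the group where Lhx2 was highest: their 12 genes summed to 50822 and 66105 in Inv GOF and 40087 and 36449 in Krt14 at 8 weeks, against 183005 and 186851 in Inv controls. Of the 12, 11 were lower in Inv GOF than in Inv controls, as Lhx2 was, and 11 were lower in Krt14 than in Inv controls. With Survivin LOF 9 of the 12 rose. Melanocyte markers (11 genes) summed to 3333 and 3124 in Krt14 LOF and 953 and 913 in Krt14 at 6 weeks, with 9 higher and 0 lower, and the relative Sox10, which melanocytes express, was among the rises. Fibroblast markers (10 genes) summed to 20620 to 21258 in Krt14 LOF and 6562 to 7067 in Krt14 at 6 weeks, of which Dcn gave 17993 and 18053 in Krt14 LOF and 2205 and 1163 in Krt14 at 6 weeks, while Col3a1 was at 13 to 103 in all 10 libraries. With Survivin LOF Dcn and Col1a2 rose and Fbln1 fell, at 1732 and 2025 in Krt14 LOF against 4302 and 5240 in Krt14, and 7 fibroblast markers did not pass. At 8 weeks melanocyte markers summed to 1405 and 1577 in Krt14 and 2536 and 2628 in Inv controls, with 0 higher and 5 lower, and fibroblast markers to 6874 and 5951 in Krt14 and 19809 and 21742 in Inv controls, with 1 higher and 3 lower. The fibroblast sum was 39271 and 16757 in the Inv GOF libraries, of which Dcn gave 37402 and 14512. In both lists the 4 Krt14 libraries with intact Survivin, where the 5 factors were high, had the lowest sums. The fibroblast order rested on Dcn alone. Fbln1 was highest in those libraries, at 4396 and 4078 in Krt14 at 8 weeks against 1768 and 1604 in Inv controls. Runx1 is also known from blood cells. Immune markers (13 genes) summed to 745 and 1208 in Krt14 LOF and 2663 and 1148 in Krt14 at 6 weeks. S100a8, which stressed keratinocytes express too, gave 2336 and 907 of these in Krt14 at 6 weeks, and it fell with Survivin LOF. Cd74 rose, at 402 and 751 in Krt14 LOF against 79 and 55 in Krt14, as did the Langerhans cell marker Cd207, at 25 and 55 against 0 and 6. Ptprc, the pan-leukocyte gene, was at 7 to 45 in all 10. The part of these cells in the levels of the factors was not tested.

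The 4 Hedgehog response genes measured, Gli1, Ptch1 and Hhip among them, did not follow the 5 factors. All 4 rose with Survivin LOF, where the 5 factors fell, and between Krt14 and Inv controls 0 were higher and 1 was lower. Gli1 was at 3966 and 3461 in Inv GOF, 4546 and 4154 in Krt14 at 8 weeks, 4194 and 3699 in Inv controls, 4829 and 4735 in Krt14 LOF and 2921 and 2583 in Krt14 at 6 weeks.

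For each factor, the genes with the most similar course over the 10 libraries were found by Pearson's r of log2 values, among genes with a mean of at least 50. The other described factors and predicted gene models were left out of this ranking. The libraries fall into groups, so r describes likeness and carries no test. Sox9 was closest to the protease gene Ctsb (r = 0.993) and the wound keratin Krt6a (0.987), and Pla2g7 was among the genes closest to Nfatc1 (0.988). Krt6a was at 1907 and 1529 in Inv GOF, 31648 and 35496 in Krt14 at 8 weeks, 997 and 1003 in Inv controls, 3806 and 1818 in Krt14 LOF and 38838 and 53795 in Krt14 at 6 weeks, a far wider range than that of Sox9. Tbx1 was closest to Ifrd1 (0.988) and Apoe (0.982), Barx2 to Prdm1 (0.978) and Adamts5 (0.976), and Runx1 to Iqgap3 (0.965) and the retinoic acid synthesis gene Aldh1a3 (0.952). For Lhx2 the nearest gene was another factor of the follicle, Cux1 (0.970), then Sbk1 (0.962). Tcf7l1 was nearest to Fam25c (0.969) and Plxdc2 (0.957), and Tcf7l2 to Pgs1 (0.955) and Nhsl1 (0.954). The likeness was lower for Foxc1, whose nearest genes were Il31ra (0.895) and Slc7a6 (0.892), and for Gata6, with Fbrs (0.901) and Jund (0.890).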

How the data were processed

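The authors deposited 1 table of normalized counts, a score rather than raw counts: every column has a sum between 20011195 and 20014054. Of the nonzero values under 20000, 99.3% to 99.9% equal exactly a whole number of reads times a step of that library, rounded up. STAR, HTSeq and the mouse build GRCm38 are named in the submitters' processing notes. The sources used here give no versions, annotation release or strand setting, so reads of antisense or overlapping genes cannot be told apart. Positions and exon lengths came from GENCODE M21 (GRCm38), and 49326 of 49671 IDs matched.

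The 21995 genes reaching 10 in 2 or more libraries were fitted as log2(value + 1), all 5 groups together, using limma 3.58.1 under R 4.3.3 (trend, 5 residual degrees of freedom, two-sided). Log2 changes are on that scale and understate those of low genes. Folds are ratios of group means of normalized counts, so they can differ from the log2 changes where the libraries of a group lie apart. Benjamini-Hochberg adjustment covered all genes tested, with calls made at 0.05. An exact permutation test on 2 against 2 libraries cannot reach 0.05. The comparisons share libraries. The model was tested on simulated data. The factors and the gene lists were chosen with earlier results of these data known. Named list genes were, per comparison and list, the 3 called genes with the largest change and a mean of at least 50, and for each factor the 2 genes most similar over the libraries, some of which are not reported here. Krt6a, Gli1, Kdr, Emcn, Cd34, Col3a1 and similar marker genes were given with their values after these had been seen. Alternatives covered the pseudocount, filter, scaling, libraries in the fit, threshold, an Xist covariate, a replicate block and each library left out. Limma-voom on recovered reads was added after seeing the data. It replaced a planned count test, which was not run because the deposited values are rounded normalized counts.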

Additional observations from a re-analysis of the deposited data

How the results depend on the processing

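Of 750 values of the 10 factors under alternative settings, 671 kept direction and side of the threshold, 31 lost and 32 gained a call, and 16 changed sign. The falls of Tbx1 and Runx1 with Survivin LOF and the rises of Nfatc1, Sox9, Tbx1, Barx2, Tcf7l1 and Tcf7l2 in Krt14 against Inv controls held in all 15 settings. Only Lhx2 changed sign among called values, to 0.06 for Inv GOF against Inv controls with the Xist covariate.

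Factors called with the Xist covariate numbered 3 (Survivin LOF), 0 (GOF), 3 (Inv GOF against Krt14) and 10 (Krt14 against Inv). Genes called with it numbered 941, 40, 202 and 5148 in that order, and 1780 for 8 against 6 weeks. Xist separates the LOF and GOF groups from the others almost as the genotype does, so calls kept with it do not speak to sex. Sizes in the comparisons of LOF or GOF groups are extrapolated under it. With it, uncalled values turned to -2.11 (Foxc1) and -2.42 (Gata6) in LOF, to -0.28 (Tcf7l2), -1.33 (Foxc1), -2.60 (Barx2) and -1.15 (Gata6) in GOF and to 0.60 (Lhx2) against Krt14. Factors called with Survivin GOF were 0 without a filter, 0 in a fit to the 2 groups compared and 0 at an adjusted p of 0.01. Fits to only the groups compared called 583 genes for GOF, 6501 for Krt14 against Inv, 2366 (and 3 factors) for 8 against 6 weeks and 3301 for Inv GOF against Krt14. An adjusted p of 0.01 left 3843, 1339, 2157, 190 and 3316 genes (LOF, GOF, Krt14 against Inv, 8 against 6 weeks, Inv GOF against Krt14). For 8 against 6 weeks 536 genes were called without a filter, 468 after quantile normalization and 701 with limma-voom, and Tcf7l2 turned to -0.01 under median-of-ratios rescaling.

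Leaving out 1 library gave 4 to 6 factors and 3772 to 5243 genes for LOF, 0 to 6 and 943 to 6249 for GOF, 6 to 6 and 1910 to 2256 for Krt14 against Inv, 0 to 0 and 77 to 844 for 8 against 6 weeks, and 5 to 8 and 3302 to 7328 for Inv GOF against Krt14. Across these fits, values that changed sign ran from -0.03 to 0.42 (Foxc1, LOF), from -0.59 to 0.05 (Runx1, 8 against 6 weeks), from -1.01 to 0.14 (Foxc1) and -1.17 to 0.40 (Gata6) for Inv GOF against Krt14, and for GOF from -0.15 to 0.99 (Foxc1), -0.72 to 0.33 (Runx1) and -0.51 to 0.96 (Barx2). The sign turned without Inv GOF replicate 1 or 2 in the Inv GOF comparisons, Krt14 LOF replicate 1 for LOF and replicate 1 at 6 weeks for Runx1. A lone library was taken to vary like the other groups.

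Same-numbered libraries share only a number: their deviations correlated at -0.11 to 0.08 over 10 pairs of groups. With the replicate number as a block, Lhx2 gained a call with LOF (0.45, adjusted p = 0.0208) and in Krt14 against Inv (-0.42, adjusted p = 0.0361), and 6707 genes were called with LOF. At 3 reads, the floor lay at 6.76 to 7.8 normalized counts, and no change below it could be seen. The cause of these shifts was not tested.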
